A study of Mus musculus with 16 samples.

Results

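The data described here are the counts of 10 genes by which astrocytes are recognized, chosen by symbol from the 26625 entries of a gene table measured in the medial prefrontal cortex (mPFC) of 16 mice. The first 3 are intermediate filament or secreted-inhibitor genes used as markers of reactive astrocytes, Gfap, Vim and Serpina3n. The other 7, Aqp4, S100b, Aldh1l1, Slc1a2, Slc1a3, Glul and Gja1, serve the resting functions of the cell and are called homeostatic here. Each symbol matched 1 entry. The mice were male C57BL/6 animals aged 8 to 10 weeks that had received an adeno-associated virus in the mPFC. In 9 mice the virus carried a short hairpin RNA against Kdm7a, a histone lysine demethylase, and in 7 mice, labelled WT for genotype, it carried a control hairpin (shNC). The hairpin was driven by the U6 promoter and EGFP by the CMV promoter, neither of which restricts expression to one cell type. All mice had the surgery and a virus, and no uninjected group was analysed here. Conditioned place preference, in which a chamber is paired with a drug, ran for 10 days, with 10 mg/kg morphine for some mice and saline throughout for the others, and tissue was taken on day 7 of withdrawal. The groups were Ctrl + Saline (3 mice), Ctrl + Morphine (4 mice), Kdm7a-shRNA + Saline (5 mice) and Kdm7a-shRNA + Morphine (4 mice), and the question was how gene expression in the mPFC changes with morphine and with loss of Kdm7a.

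Astrocytes take up glutamate and potassium, supply neurons with glutamine, couple to each other through gap junctions and line blood vessels with water-channel-rich endfeet. After injury, infection or inflammation they become reactive, with more intermediate filament protein and a changed set of secreted proteins. Gfap and Vim encode filament subunits, and STAT3 is a well known activator of this response.

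Between 6596991 and 12418112 reads per mouse were counted, and the deepest library was Kdm7a-shRNA + Morphine replicate 3. Levels are given as normalized CPM, read counts scaled to library size and then adjusted by TMM, which makes the bulk of genes comparable between libraries. The TMM factors ran from 1.02 to 1.07 in the Ctrl mice and from 0.913 to 0.991 in the Kdm7a-shRNA mice. They did not overlap, so this step raised knockdown levels relative to Ctrl levels. Each member was counted in every mouse, with 130 to 27251 counts, so the defining astrocyte markers were present in every library. Kdm7a itself measured 6.19 to 9.78 normalized CPM in the Ctrl mice and 3.01 to 6.28 in the Kdm7a-shRNA mice, from 35 to 93 counts. Its fitted log2 fold change was -0.71 over both treatments (SE 0.15, adjusted p = 0.00154), -0.76 under saline (adjusted p = 0.0153) and -0.67 under morphine, where it missed the threshold (adjusted p = 0.0506). To pass, a gene needed an adjusted p under 0.05 together with a change of 1.5-fold or more, by edgeR's quasi-likelihood test over 18826 genes. The labels do not give litters, cages or sequencing dates, so p-values cover the spread between these mice only.

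Kdm7a knockdown went with higher levels of the reactive genes. Averaged over both treatments, 5 of the 10 members rose and none fell, against 7.68% of all tested genes that rose and 9.93% that fell. All 3 reactive genes were among them, with Aldh1l1 and Aqp4 of the homeostatic set. The median log2 fold change was 1.26 over the reactive genes and 0.30 over the homeostatic genes, and 0.00967 over all tested genes. In a bulk tissue sample, more cells of a type and more RNA per cell cannot be told apart.

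Vim, the filament subunit of immature and reactive astrocytes that endothelial and microglial cells also make, showed the clearest separation. It measured 31.5, 20.8 and 17.2 normalized CPM in the Ctrl + Saline mice and 29.7, 14.2, 20.5 and 18.2 in the Ctrl + Morphine mice. In the Kdm7a-shRNA + Saline mice the values were 78.4, 139.5, 198, 54.8 and 154, and in the Kdm7a-shRNA + Morphine mice 73.5, 62.0, 211 and 43.5. Every one of the 9 Kdm7a-shRNA mice lay above all 7 Ctrl mice, a separation found for 1.86% of tested genes. The log2 fold change was 2.43 under saline (SE 0.50, adjusted p = 0.00342) and 2.25 under morphine (SE 0.45, adjusted p = 0.00754), or 2.34 averaged (SE 0.34, adjusted p = 1.07e-04), which is a 5.06-fold difference.

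Gfap, the principal filament protein of astrocytes, varied widely even among control mice. It measured 177, 98.4 and 215 normalized CPM in the Ctrl + Saline mice and 258, 65.2, 202 and 219 in the Ctrl + Morphine mice. The values were 239, 483, 581, 235 and 564 in the Kdm7a-shRNA + Saline mice and 244, 208, 548 and 137 in the Kdm7a-shRNA + Morphine mice. The groups overlapped, since 4 of the 9 Kdm7a-shRNA mice exceeded all Ctrl mice while the other 5 lay inside the Ctrl range. Under saline the log2 fold change was 1.36 (SE 0.47, adjusted p = 0.0485), just inside the threshold. Under morphine it was 0.61 (SE 0.43, 95% interval -0.30 to 1.52, adjusted p = 0.406) and did not pass. The average over treatments was 0.99 (SE 0.32, adjusted p = 0.0277).

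Serpina3n encodes a secreted serine protease inhibitor. Its levels were 43.0, 34.9 and 42.9 normalized CPM in the Ctrl + Saline mice and 36.7, 18.7, 30.4 and 26.4 in the Ctrl + Morphine mice. They were 52.4, 109, 126, 41.4 and 106 in the Kdm7a-shRNA + Saline mice and 70.9, 54.1, 135 and 38.4 in the Kdm7a-shRNA + Morphine mice. Of the 9 Kdm7a-shRNA mice 7 exceeded all Ctrl mice, and the lowest animal of each knockdown group fell inside the Ctrl range. The log2 fold change was 1.11 under saline (SE 0.38, adjusted p = 0.0487), 1.41 under morphine (SE 0.37, adjusted p = 0.0229) and 1.26 averaged (SE 0.27, adjusted p = 0.00198). Serpina3n has close relatives in the mouse genome, and how the counting divided reads among them is not given in the sources used here.

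**Figure D1:**
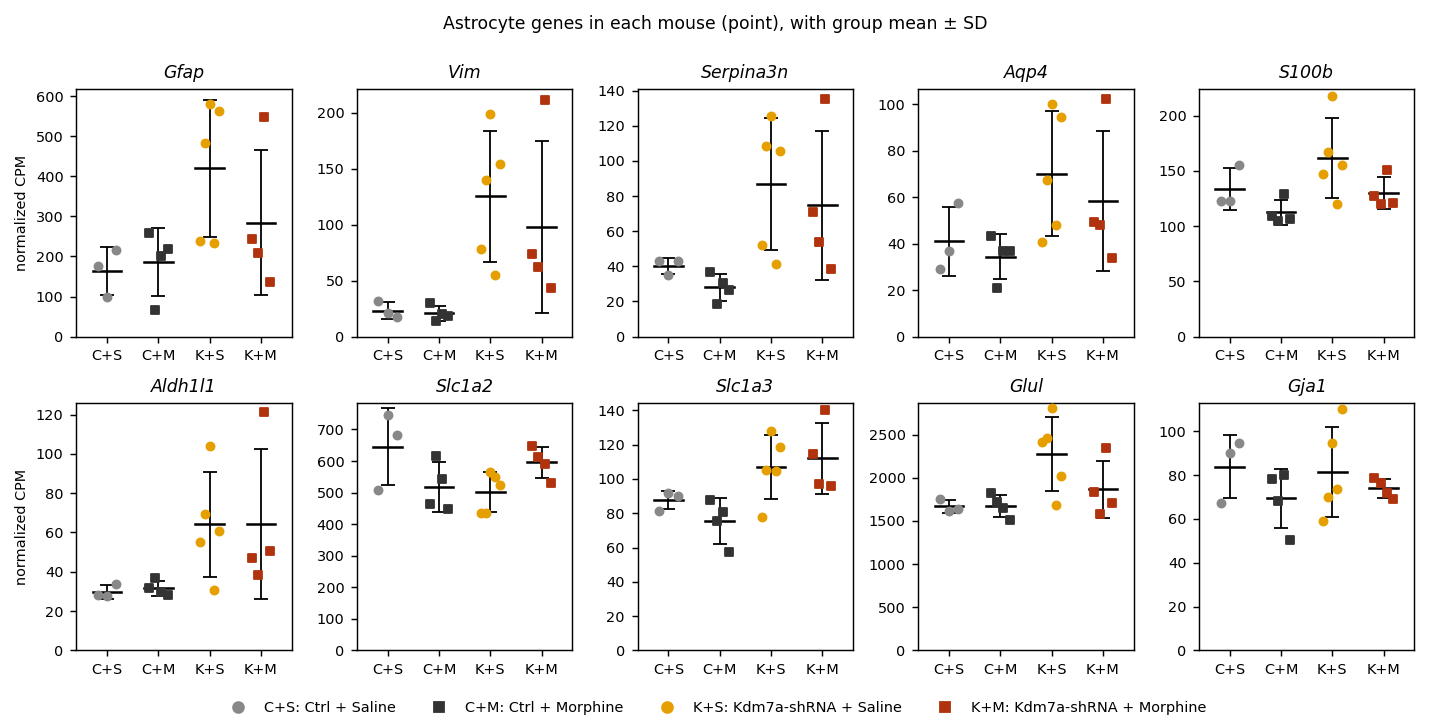
Normalized CPM (y axis, from 0) of each member in each of the 16 mice (points), by group (x axis), with group mean and SD as lines. Vim separated the viruses in every mouse, Gfap and Serpina3n overlapped, and Slc1a2 and Gja1 had overlapping ranges.

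The reactive genes lie on different chromosomes, Gfap at chr11:102887336-102900912 (minus strand), Vim at chr2:13573927-13582826 (plus strand) and Serpina3n at chr12:104406729-104414329 (plus strand), each a protein-coding gene. The sequences before the RefSeq start sites of these genes (GRCm38.p6, printed 5′ to 3′ on the gene's strand) are shown because the 3 reactive genes moved together across mice, with Slc1a3 as a homeostatic gene for comparison. Capitals mark matches, on either strand, to 4 short motifs, namely TTCNNNGAA (STAT), TGANTCA (AP-1), TTGGC (half-site of NFI factors) and TATAAA (the core promoter box). The Gfap window is chr11:102897201-102897450 (minus strand), Serpina3n is chr12:104406458-104406707 (plus strand) and Slc1a3 is chr15:8710808-8711057 (minus strand), each covering the 250 bases before the start. The Gfap window lies in an intron of a longer noncoding Gfap transcript in GENCODE. For Vim, where GENCODE places an exon of longer transcripts over this region, only the 30 bases at chr2:13574271-13574300 (plus strand) are given.
Gfap: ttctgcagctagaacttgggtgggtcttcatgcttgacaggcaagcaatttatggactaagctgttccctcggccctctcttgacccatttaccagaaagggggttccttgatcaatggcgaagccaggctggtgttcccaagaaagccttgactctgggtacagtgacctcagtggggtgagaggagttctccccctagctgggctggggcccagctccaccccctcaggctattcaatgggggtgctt
Serpina3n: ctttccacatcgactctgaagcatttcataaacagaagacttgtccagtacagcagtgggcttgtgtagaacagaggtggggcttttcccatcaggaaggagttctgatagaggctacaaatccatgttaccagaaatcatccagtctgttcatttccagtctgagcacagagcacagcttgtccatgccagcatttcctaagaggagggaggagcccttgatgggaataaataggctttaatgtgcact
Slc1a3: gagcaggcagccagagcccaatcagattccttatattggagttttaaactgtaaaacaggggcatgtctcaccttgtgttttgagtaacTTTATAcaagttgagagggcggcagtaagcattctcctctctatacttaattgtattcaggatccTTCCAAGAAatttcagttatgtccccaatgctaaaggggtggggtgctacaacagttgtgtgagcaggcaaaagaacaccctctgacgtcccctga
Vim: aacagtgtTATAAAagcagcgcccTTGGCg
In the 250 bases before the RefSeq start, Vim held TATAAA at -32 to -27 and TTGGC at -93 to -89 and -16 to -12, positions counted back from the start site. Gfap and Serpina3n held none of the 4 motifs in this window. Slc1a3 held the STAT motif at -96 to -88 and TATAAA, on the opposite strand, at -161 to -156. Of 9 members with a window in the table (Aqp4 had none), 1 held the STAT motif, 1 (Gja1) the AP-1 motif, 4 (Vim, S100b, Slc1a2 and Glul) the NFI half-site and 2 TATAAA. Over the 32851 windows in the table the shares were 7.02%, 6.75%, 41.5% and 12.4%. A match of letters is not a bound site, and its absence from this window says nothing about a factor.

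Among the homeostatic genes, Aldh1l1, a folate enzyme and one of the most astrocyte-restricted markers, moved most. It measured 28.2, 27.4 and 33.6 normalized CPM in the Ctrl + Saline mice and 31.7, 36.9, 29.7 and 28.03 in the Ctrl + Morphine mice. The knockdown mice had 55.1, 69.6, 104, 30.9 and 60.7 with saline and 46.9, 38.4, 121 and 50.6 with morphine. Of the 9 Kdm7a-shRNA mice 8 were above every Ctrl mouse, and the control values were tightly grouped. The log2 fold change was 1.11 under saline (SE 0.35, adjusted p = 0.0338), 1.03 under morphine (SE 0.33, adjusted p = 0.0571, past the fold but not the p threshold) and 1.07 averaged (SE 0.24, adjusted p = 0.00322).

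Aqp4, the water channel of the endfoot membrane, measured 28.9, 36.7 and 57.6 normalized CPM in the Ctrl + Saline mice and 43.4, 20.7, 36.8 and 36.7 in the Ctrl + Morphine mice. The knockdown mice had 40.9, 67.3, 100.2, 47.8 and 94.5 with saline and 49.3, 48.1, 102 and 33.7 with morphine. The groups overlapped, and 4 of the 9 Kdm7a-shRNA mice exceeded all Ctrl mice. Its log2 fold change of 0.77 was the same to 2 decimals under both treatments (adjusted p = 0.136 and 0.166) and passed only as the average (SE 0.25, adjusted p = 0.0277).

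The glutamate genes moved less. Slc1a3, the transporter GLAST, ranged from 57.1 to 91.6 normalized CPM in the Ctrl mice and from 78.0 to 140.2 in the Kdm7a-shRNA mice, 8 of which exceeded every Ctrl mouse. Its log2 fold change was 0.57 under morphine (SE 0.16, adjusted p = 0.0341, 1.49-fold and so just under the fold threshold), 0.29 under saline (adjusted p = 0.240) and 0.43 averaged (SE 0.12, adjusted p = 0.0110). Glul, glutamine synthetase, ranged from 1512 to 1823 normalized CPM in the Ctrl mice and from 1579 to 2804 in the Kdm7a-shRNA mice. Its log2 fold change was 0.45 under saline (SE 0.15, adjusted p = 0.0417) and 0.30 averaged (SE 0.10, adjusted p = 0.0362), both under 1.5-fold, and 0.15 under morphine (adjusted p = 0.537). S100b, a calcium-binding protein, had averaged log2 fold change 0.24 (SE 0.11, adjusted p = 0.111), with Ctrl mice from 105 to 156 and Kdm7a-shRNA mice from 120.0 to 218.

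The remaining homeostatic genes, Slc1a2 and Gja1, had averaged values near 0. Slc1a2, the transporter GLT-1 that clears most synaptic glutamate, measured 508, 745 and 682 normalized CPM in the Ctrl + Saline mice and 465, 617, 543 and 447 in the Ctrl + Morphine mice. The knockdown mice had 435, 436, 565, 551 and 523 with saline and 649, 612, 592 and 530.0 with morphine. None of the 9 knockdown mice exceeded the Ctrl range. The averaged log2 fold change was -0.08 (SE 0.10, 95% interval -0.28 to 0.12, adjusted p = 0.577), an interval that excludes a 1.5-fold difference in either direction. Under saline it was -0.36 (SE 0.14, 95% interval -0.65 to -0.07, adjusted p = 0.0726), an interval that includes a 1.5-fold fall. Under morphine it was 0.20 (SE 0.14, adjusted p = 0.378). Gja1, the gap junction protein connexin 43, had an averaged log2 fold change of 0.02 (SE 0.13, 95% interval -0.25 to 0.30, adjusted p = 0.911). It measured 50.5 to 94.4 normalized CPM in the Ctrl mice and 58.9 to 109.95 in the Kdm7a-shRNA mice, and its sign changed with the scaling.

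**Figure D2:**
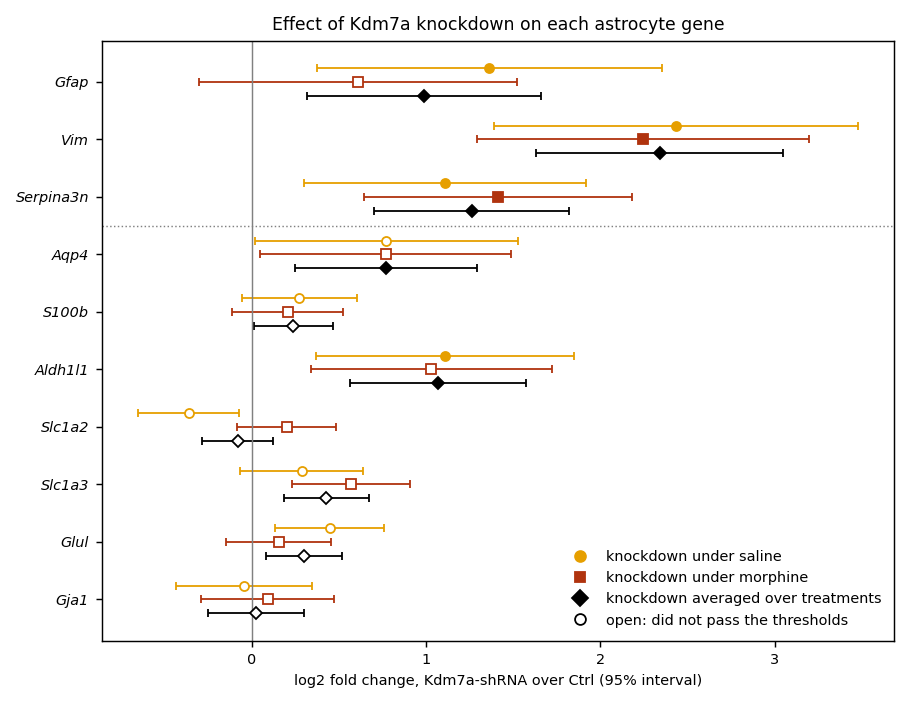
Log2 fold change of Kdm7a-shRNA over Ctrl (x axis) with its 95% interval for each member (y axis), under saline, under morphine and averaged over treatments. Filled symbols passed both thresholds, and the reactive genes are above the dotted line. Vim passed in all 3 comparisons, at 2.43, 2.25 and 2.34.

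Under saline, 4 of the 10 members rose (Gfap, Vim, Serpina3n and Aldh1l1), and none fell, against 7.43% and 9.31% of tested genes. Under morphine, 2 rose (Vim and Serpina3n) and none fell, against 2.86% and 4.83%. The difference between these counts is no test of the treatments. The interaction, which compares the knockdown effect under morphine with that under saline, passed for 0 of 10 members, against 0.085% of tested genes. Adjusted p-values of the interaction ran from 0.269 to 0.999. By unadjusted p 1 member, Slc1a2, was under 0.05, against 10.7% of tested genes, with an interaction of 0.56 on the log2 scale (95% interval 0.16 to 0.97, adjusted p = 0.269), and DESeq2 also passed 0. The Gfap interaction was -0.75, with a 95% interval of -2.07 to 0.57.

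Counts in the single-treatment comparisons depended on single mice. Under saline the count was 1 without any one of the 3 Ctrl + Saline mice or without Kdm7a-shRNA + Saline replicate 2 or 3, and 2 without replicate 5. Under morphine it was 1 without Ctrl + Morphine replicate 2, 3 or 4 or without Kdm7a-shRNA + Morphine replicate 3, and 4 without Kdm7a-shRNA + Morphine replicate 2 or 4. Averaged over treatments it was 3 without Ctrl + Saline replicate 2 or without Kdm7a-shRNA + Morphine replicate 3. Vim passed in each comparison whichever mouse was left out, and Serpina3n and Aldh1l1 did so in the averaged comparison. Under saline the Gfap call held in 2 of the 8 fits that left out a mouse of the compared groups, with adjusted p from 0.0285 to 0.187. The averaged call of Gfap held in 14 of 16 and that of Aqp4 in 10 of 16 such fits.

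Morphine alone moved no member past the thresholds. Between Ctrl + Saline and Ctrl + Morphine 0 of 10 members passed, against 0.0% of tested genes, with log2 fold changes from -0.52 (Serpina3n) to 0.19 (Gfap). One member, Slc1a2, had an unadjusted p under 0.05, with a log2 fold change of -0.32 (SE 0.15, adjusted p = 0.400), while 11.7% of tested genes had such a p. Between Kdm7a-shRNA + Saline and Kdm7a-shRNA + Morphine 0 of 10 passed, against 0.00531% of tested genes. There, 2 members had an unadjusted p under 0.05, S100b at -0.31 and Glul at -0.29 (adjusted p = 0.709 and 0.712), against 7.02% of tested genes. Gfap, at -0.56 under knockdown (SE 0.41), had a 95% interval of -1.43 to 0.31. DESeq2 and edgeR's exact test also passed 0 members in both comparisons. Because the morphine and knockdown comparisons share groups, their values are not independent of each other.

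To set the reactive against the homeostatic genes within a mouse, the mean log2 CPM of the 7 homeostatic genes was subtracted from that of the 3 reactive genes. The difference was -1.45 ± 0.396 (SD, n = 3) in Ctrl + Saline and -1.49 ± 0.526 (SD, n = 4) in Ctrl + Morphine. It was -0.24 ± 0.434 (SD, n = 5) in Kdm7a-shRNA + Saline and -0.60 ± 0.581 (SD, n = 4) in Kdm7a-shRNA + Morphine. Ctrl mice lay between -2.25 and -1.01 and Kdm7a-shRNA mice between -1.23 and 0.17, so the viruses overlapped at the lowest knockdown mouse, Kdm7a-shRNA + Morphine replicate 4. The shift with knockdown was 1.22 under saline and 0.89 under morphine, made up of 1.54 and 1.29 in the reactive mean and 0.33 and 0.40 in the homeostatic mean. Leaving out each mouse in turn kept the shift between 1.05 and 1.44 under saline and between 0.64 and 1.10 under morphine. Since the reactive genes were grouped with their behaviour in these data known, no test was made on this difference.

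**Figure D3:**
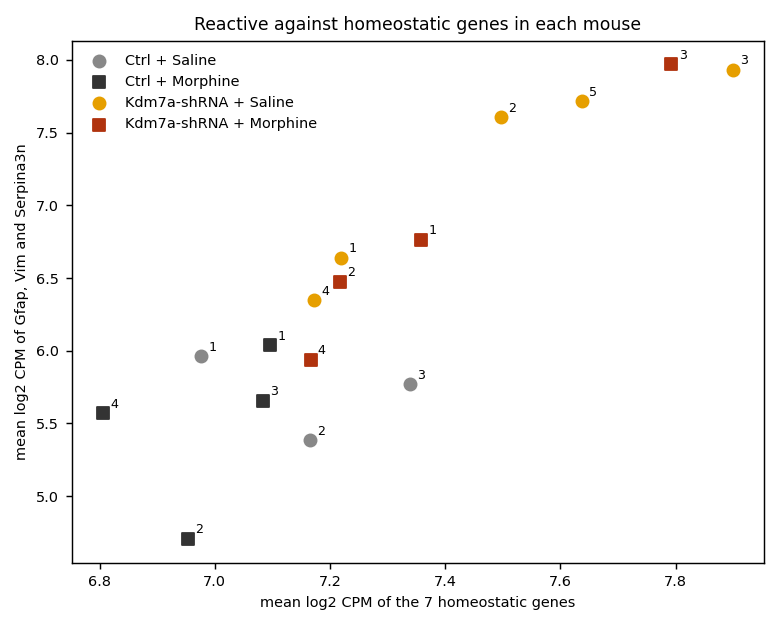
Mean log2 CPM of the 3 reactive genes (y axis) against that of the 7 homeostatic genes (x axis) in each mouse, labelled by replicate number. Kdm7a-shRNA mice lay higher on the y axis, and replicates 2, 3 and 5 of Kdm7a-shRNA + Saline and replicate 3 of Kdm7a-shRNA + Morphine stood apart at the upper right.

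The knockdown mice differed among themselves, and in the same way for most members. Kdm7a-shRNA + Saline replicates 2, 3 and 5 and Kdm7a-shRNA + Morphine replicate 3 were the 4 highest of the 9 knockdown mice for each of the 3 reactive genes. Replicate 3 of Kdm7a-shRNA + Saline was in the top 4 for all 10 members, and replicate 3 of Kdm7a-shRNA + Morphine for 9. At the other end, Kdm7a-shRNA + Saline replicate 4 and Kdm7a-shRNA + Morphine replicate 4 were in the top 4 for 0 members. The highest knockdown mouse exceeded the lowest by 4.86-fold for Vim, 4.25-fold for Gfap and 3.52-fold for Serpina3n, but by 1.49-fold for Slc1a2. Kdm7a levels followed this order only in part. The lowest Kdm7a level (3.01 normalized CPM, 35 counts) and the highest Vim level were both in Kdm7a-shRNA + Morphine replicate 3. Of the other leading mice, Kdm7a-shRNA + Saline replicates 2 and 5 had 4.95 and 4.92, and replicate 3 had 6.04. Kdm7a-shRNA + Morphine replicate 2, not among the leading mice, had 4.44. Replicate 4 of each knockdown group had 6.07 (saline) and 6.04 (morphine). A link between Kdm7a level and the members was not tested.

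Across the 16 mice, the log2 levels of the 3 reactive genes correlated with each other at Pearson r from 0.835 to 0.946 (3 pairs). Correlations of Slc1a2 with the other 9 members ran from -0.353 to 0.537, and those of Gja1 from 0.134 to 0.611. These r values are descriptions over mice that share a virus, a scaling and libraries. The known genes most like Vim were Plscr2 (r = 0.993), Pbxip1 (0.987) and Ftl1 (0.987), and those most like Serpina3n were Cd63 (0.988), Npc2 (0.986) and Cd9 (0.984). Gfap was most like Tnfrsf1a (0.967), Vav1 (0.959) and Rasa4 (0.953), and Aldh1l1 most like Dhrs1 (0.951), Gm9999 (0.943) and Gm44805 (0.934). Aqp4 was most like Jam2 (0.957), Gal3st4 (0.957) and Slc37a2 (0.956), S100b most like Rida (0.914), Hist1h1e (0.910) and Agpat5 (0.8996), and Slc1a3 most like Tmed10 (0.939), Itga6 (0.925) and Stxbp3 (0.918). Glul was most like Fgfr1 (0.935), Mertk (0.928) and Rpl5 (0.925), Slc1a2 most like Sparcl1 (0.860), Chrm2 (0.856) and Idh3a (0.8496), and Gja1 most like Cpm (0.833), Ssh2 (0.808) and Heatr6 (0.799).

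Other genes known from reactive astrocytes were counted from lists of symbols. Of 10 further pan-reactive genes, 7 rose and none fell in the averaged comparison, with a median log2 fold change of 1.22. Of all tested genes 7.68% rose and 9.93% fell in that comparison. S1pr3, a sphingosine phosphate receptor, had a log2 fold change of 2.40 (SE 0.33, adjusted p = 6.9e-05). It measured 0.963 to 2.80 normalized CPM in the Ctrl mice and 4.03 to 15.6 in the knockdown mice. The knockdown mice all lay above the Ctrl mice, a separation found for 1.86% of tested genes. Osmr, the oncostatin M receptor, had 2.23 (adjusted p = 1.28e-04), and Lcn2, the iron-binding lipocalin, 3.14 (SE 0.66, adjusted p = 0.00187). Steap4, a metalloreductase, was at 0 in the lowest Ctrl mouse and reached 4.38 normalized CPM in the highest knockdown mouse, so its fitted 3.31 rests on few counts. With each mouse left out in turn the count was 7 each time.

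Of 12 genes tied to inflammation-induced reactivity, 7 rose and none fell in the averaged comparison, with a median of 0.86. Among all tested genes 7.68% rose and 9.93% fell. Serping1, the complement C1 inhibitor, had 1.43 (SE 0.28, adjusted p = 0.00125), Fbln5 1.20 and Ugt1a1 1.71, while Srgn, a proteoglycan core protein that microglia also make, had 1.01. Fkbp5, a chaperone of steroid receptors, fell under morphine at -0.60 (SE 0.17, adjusted p = 0.0377) and was -0.37 averaged (adjusted p = 0.0335, under the fold threshold). Of 12 genes tied to ischaemia-induced reactivity, 8 were abundant enough to test and 4 rose, with a median of 0.88. They were Cd14, a lipopolysaccharide co-receptor also made by microglia, at 1.51 (SE 0.22, adjusted p = 1.1e-04), Clcf1 at 1.98, Sphk1 at 1.33 and Tm4sf1 at 1.07. For Cd14 all 9 knockdown mice lay above all Ctrl mice, a separation found for 1.86% of tested genes.

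Of 17 tested regulators and filament partners, 7 rose and none fell, with a median of 0.51. Stat3, the transcription factor of the reactive response, measured 17.4 to 23.8 normalized CPM in the Ctrl mice and 24.1 to 48.9 in the knockdown mice, with a log2 fold change of 0.76 (SE 0.15, adjusted p = 0.00164). Cntf, a cytokine that acts through STAT3, had 2.59 (SE 0.41, adjusted p = 2.4e-04). Lgals3 at 1.95 (SE 0.34, adjusted p = 5.26e-04) and Tspo (adjusted p = 0.00167) also rose, both of which microglia express. Against these, the median over all tested genes was 0.00967, and 7.68% of all tested genes rose and 9.93% fell.

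Genes of ordinary astrocyte function gave a mixed picture. Of 48 other astrocyte genes, 15 rose and 4 fell in the averaged comparison, against 7.68% and 9.93% of all tested genes. Their median was 0.36. The count that rose was 9 without Kdm7a-shRNA + Saline replicate 3 or without Kdm7a-shRNA + Morphine replicate 3. Clu, the secreted chaperone clusterin, was the firmest. It measured 1055 to 1334 normalized CPM in the Ctrl mice and 1899.5 to 3656 in the knockdown mice, with a log2 fold change of 1.17 (SE 0.14, adjusted p = 2.88e-05). Slc25a18, a mitochondrial glutamate carrier, had 1.32, Ednrb, an endothelin receptor, 1.17, and Mlc1, an endfoot membrane protein, 0.80. For each of these 3 genes all 9 knockdown mice exceeded all Ctrl mice, a separation found for 1.86% of tested genes. Among those that fell, and named after their values were seen, were the sulfur amino acid enzyme Cbs at -0.59 and the metallothioneins Mt1 at -0.75 and Mt2 at -0.76 (adjusted p = 0.00200, 0.0110 and 0.0227).

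Of 13 glutamate and glutamine handling genes, 2 rose and none fell, against 7.68% and 9.93% of all tested genes. The median was 0.28, and 1 rose when any one of 8 mice was left out. The 2 that rose were the glutamine transporters Slc38a3, at 1.12 (SE 0.21, adjusted p = 8.78e-04), and Slc38a1, at 0.59 (SE 0.09, adjusted p = 1.9e-04), the latter more a neuronal gene. Of 13 tested gap junction, aquaporin anchoring and endfoot genes, 3 rose, with a median of 0.21. These were Mlc1 and Hepacam (0.63), both also in the list of other astrocyte genes, and the connexin gene Gjb2 at 1.02. The count was 1 without replicate 3 of Ctrl + Saline, of Kdm7a-shRNA + Saline or of Kdm7a-shRNA + Morphine. Clcn2, a chloride channel, fell under saline (-0.62, adjusted p = 0.0108) and was -0.50 averaged, under the fold threshold. Dag1, which anchors the aquaporin complex, rose under saline (0.64, adjusted p = 0.0103) and was 0.04 under morphine.

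**Figure D4:**
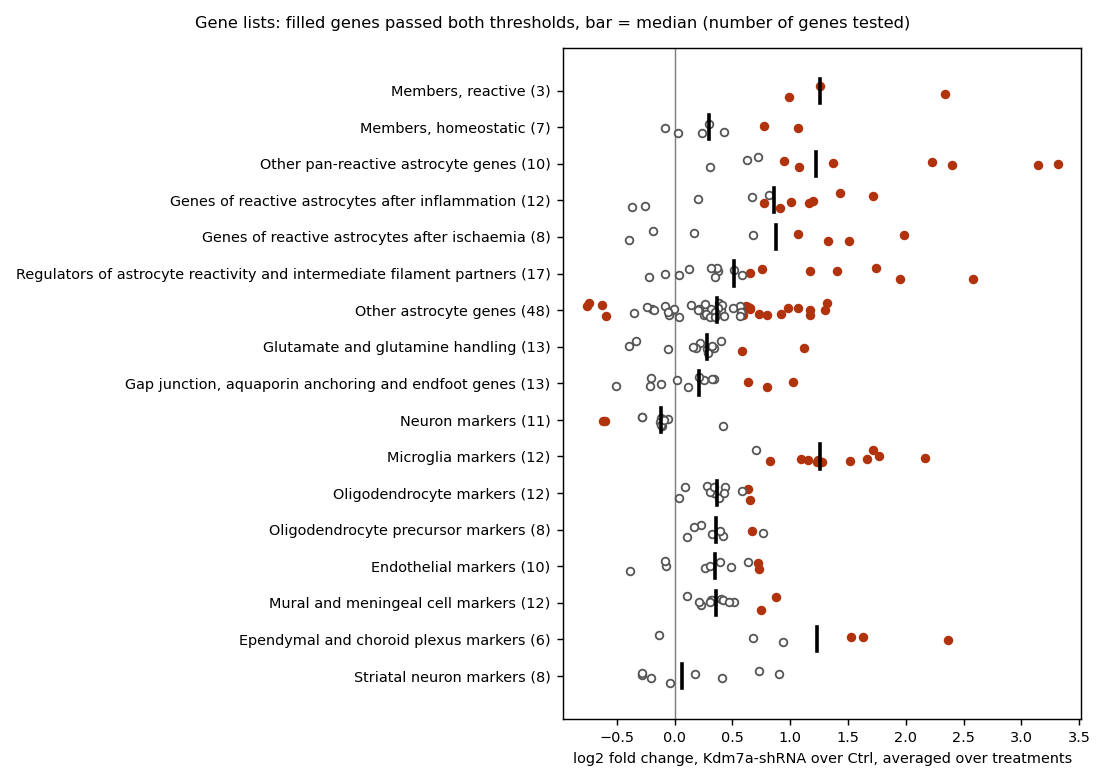
Log2 fold change of Kdm7a-shRNA over Ctrl averaged over treatments (x axis) for each tested gene of each list (y axis, number of genes in parentheses), with the median as a bar. Filled points passed both thresholds, and the medians of the reactive lists (1.22, 0.86 and 0.88) lay to the right of 0, as did those of the microglia markers (1.26) and of the ependymal and choroid plexus markers (1.23, 6 genes).

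Markers of another glial cell moved with the astrocyte genes. Of 12 microglia markers, 11 rose and none fell in the averaged comparison, against 7.68% and 9.93% of all tested genes. Their median was 1.26, and Trem2, C1qb and C1qc had 2.17, 1.77 and 1.72. None of the 12 was at 0 in all mice. Their summed level was 928 to 2594 normalized CPM in the Ctrl mice and 2065 to 9486 in the knockdown mice, and the 4 highest knockdown mice were the same 4 that led the reactive genes. The other 8 knockdown mice exceeded all Ctrl mice, while in Kdm7a-shRNA + Morphine replicate 4 the microglial sum, 2065, was inside the Ctrl range. In that mouse Vim, at 43.5, was above the highest Ctrl mouse at 31.5. Gfap, at 137, and Serpina3n, at 38.4, were inside the Ctrl ranges of those genes. With a mouse left out, the averaged count of microglia markers was 11 or 12. The single-treatment counts were less stable. Under saline the count was 11, and 2 without Ctrl + Saline replicate 2. Under morphine it was 8, and 1 without Kdm7a-shRNA + Morphine replicate 3. Of 11 neuron markers 2 fell in the averaged comparison (Gad2 at -0.60 and Map2 at -0.62), against 9.93% of all tested genes, and the median was -0.11. Their sums overlapped between viruses, from 3226 to 4535 in the Ctrl mice and from 2476 to 4383 in the knockdown mice. The 4 knockdown mice that led the reactive genes lay below the lowest Ctrl mouse. They had 2476, 2536 and 2619.5 (Kdm7a-shRNA + Saline replicates 2, 3 and 5) and 2586 (Kdm7a-shRNA + Morphine replicate 3). Kdm7a-shRNA + Morphine replicate 2, at 3065, was below it too, and the remaining knockdown mice ran from 3283 to 4383. The ranking was not particular to microglia. The 4 mice that led the reactive genes also had the highest knockdown sums of oligodendrocyte precursor and endothelial markers. The same held for mural and meningeal markers and for ependymal and choroid plexus markers. For oligodendrocyte markers, Kdm7a-shRNA + Morphine replicate 1 stood in the top 4 in place of replicate 3. The part of these cell types in the astrocyte results was not tested.

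**Figure D5:**
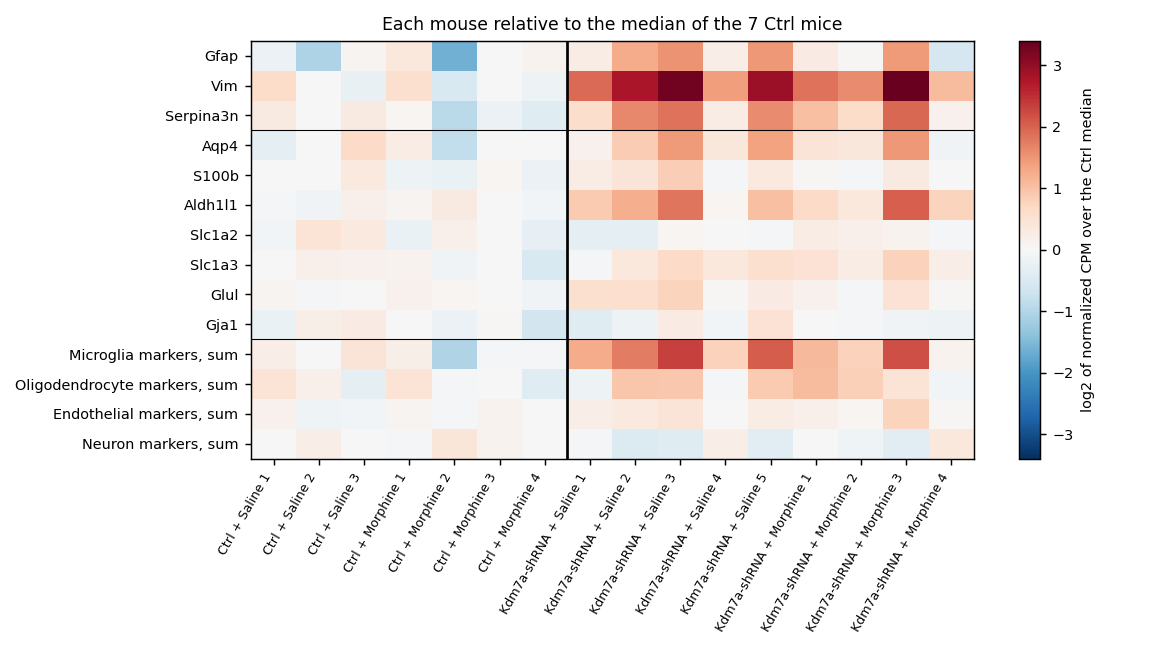
Log2 ratio of each member, and of the summed markers of 4 other cell types, to the median of the 7 Ctrl mice (colour scale), with the 16 mice in columns and the Ctrl mice left of the line. Vim was raised in all 9 knockdown mice, and the mice with the highest Gfap, Vim and Serpina3n also had the highest microglia and endothelial marker sums.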

How the data were processed

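Polyadenylated RNA of 16 mPFC samples was sequenced as cDNA on the Nanopore platform. The authors discarded short, low-quality and ribosomal reads, aligned the full-length ones to mm10 (minimap2) and deposited raw counts per gene. The deposited CPM values, made by the authors from those counts, were checked (largest deviation 4.99e-06) and not tested. The annotation release is not given in the sources used here.

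The members and the gene lists were chosen with earlier results of these data known. Counts were fitted in R 4.3.3 with edgeR 4.0.16 (filterByExpr, TMM, quasi-likelihood test, 1 coefficient per group, 16 mice) and adjusted by the Benjamini-Hochberg method over 18826 genes. Adjusted p-values are from this test. Standard errors are the log2 fold change over the root of F. Genes named from a list are the 4 or fewer with the smallest averaged adjusted p among those that passed in a knockdown comparison. Fkbp5, Gjb2, Cbs, Mt1 and Mt2 were named in addition to these. The 3 genes of highest correlation were named for each member. Values of some list genes are not reported here. The scripts were tested on simulated counts with known changes. Within groups, counts of mice differed beyond sampling noise (chi-square per degree of freedom 8.33 to 51.2, 25 pairs). Deviations of same-numbered mice from their group means correlated at r -0.102 to 0.395 (21 pairs, 6 over 0.1). Between Ctrl + Saline and Ctrl + Morphine all 3 pairs were over 0.1 (0.146, 0.207 and 0.11). There, Ctrl + Saline replicate 3 and Ctrl + Morphine replicate 4, which differ in number, reached 0.133. These values cannot decide whether the numbers pair the mice, and the labels name no shared litter or day. The main test took the mice as unpaired. With the replicate number as a block, no member passed between these groups, as without it. Its counts in the other comparisons are given below. In the other pairs of groups at least 1 pair was under 0.1.

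Other settings tried were no filter, at least 10 counts in every mouse, RLE scaling, scaling to library size alone, a fit of the compared groups only, DESeq2 1.42.0, edgeR's exact test, known genes only, the replicate block and each mouse left out. For the lists other than the members these were chosen after seeing the data. Sequences are RefSeq's (GRCm38.p6), and positions follow GENCODE vM21 on GRCm38.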

Additional observations from a re-analysis of the deposited data

Results flagged for a closer look

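Aldh1l1 in Kdm7a-shRNA + Morphine replicate 3, at 121 normalized CPM, stood apart from the other 3 mice of its group, which lay between 38.4 and 50.6. The gap to its nearest neighbour was 0.852 of the group's range, above the critical value of 0.829 for 4 samples. It was the only one past that limit among 30 groups of 4 or 5 mice tested, and chance flags about 1 in 20. This mouse had the deepest library and the highest level of 5 of the 10 members among the knockdown mice.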

How the results depend on the processing

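Direction and call of Vim, Serpina3n and Aldh1l1 in the averaged comparison were the same under every alternative run. The count of members that passed under saline was 4, and became 2 with RLE size factors, with library size only and with at least 10 counts in every mouse, and 1 with known genes only. Under morphine the count of 2 became 4 with DESeq2. The averaged count of 5 became 3 with known genes only. With each mouse left out the counts ran from 1 to 4 under saline and under morphine and from 3 to 5 averaged, and were 0 for both morphine comparisons and the interaction. Library size only moved the median of all genes by over 0.1, to -0.12 under saline and -0.11 under morphine and averaged. With at least 10 counts in every mouse, which leaves out many low genes, the averaged count of the further pan-reactive genes was 2 and not 7, of the ischaemia genes 2 and not 4 and of the regulators 4 and not 7. The replicate block gave 4 members for knockdown under saline, 3 under morphine and 5 averaged, and 0 for both morphine comparisons and the interaction. Signs turned, for values that passed in no fit, in the following cases. Under morphine in Ctrl mice, Vim was 0.0388 with the block, and Glul was -0.0154 with RLE, -0.00352 without a filter, -0.0197 with at least 10 counts, -0.0154 with DESeq2 and -0.0291 with known genes only. Under morphine in knockdown mice with the block, Aldh1l1 was -0.0139 and Gja1 0.0053. For knockdown, Gja1 was -0.0123 under morphine with library size only, and averaged -0.0967 with library size only, -0.00685 with at least 10 counts, -0.0398 with known genes only and -0.00599 with the block. The Aqp4 interaction was 0.0247 with RLE, 0.0175 with library size only, 0.0129 without a filter, 0.0250 with at least 10 counts, 0.0221 with DESeq2 and 0.0318 with known genes only. With each mouse left out, the morphine effect in Ctrl mice ran from -0.0730 to 0.47 for Gfap, -0.39 to 0.0823 for Vim, -0.49 to 0.05002 for Aqp4 and -0.0377 to 0.0515 for Glul. In knockdown mice it ran from -0.67 to 0.00269 for Serpina3n, -0.50 to 0.25 for Aldh1l1 and -0.0616 to 0.14 for Slc1a3. Knockdown of Kdm7a gave Gja1 values from -0.22 to 0.0530 under saline, -0.0349 to 0.17 under morphine and -0.0579 to 0.0728 averaged. Interactions ran from -0.91 to 0.0549 for Vim, -0.16 to 0.52 for Serpina3n, -0.43 to 0.25 for Aqp4, -0.15 to 0.0667 for S100b and -0.59 to 0.17 for Aldh1l1. The cause was not tested.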

Other observations

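The other cell type lists were short, so their counts were small. The share that rose was above the 7.68% of all tested genes in each of them except the striatal neuron markers, of which none rose. In the comparison of Kdm7a-shRNA with Ctrl averaged over treatments, 2 of 12 oligodendrocyte markers rose (Cldn11 at 0.65 and Opalin at 0.63 on the log2 scale), with a median of 0.36, and their summed level was 7209 to 13424 normalized CPM in the Ctrl mice and 8588 to 20242 in the knockdown mice. Of 8 oligodendrocyte precursor markers 1 rose (Olig1 at 0.67), and of 10 endothelial markers 2 rose (Pecam1 at 0.73 and Cldn5 at 0.72), with sums of 287 to 354 and 318 to 536. Of 12 mural and meningeal markers 2 rose, Acta2 at 0.75 and Col1a1 at 0.88. Of 6 tested ependymal and choroid plexus markers, whose median of 1.23 was close to the 1.26 of the microglia markers, 3 rose, among them Rarres2 at 1.63 and Foxj1 at 1.52, from sums of 10.7 to 27.7 normalized CPM in the Ctrl mice and 24.7 to 90.3 in the knockdown mice, 8 of 9 of which exceeded all Ctrl mice. The third, Folr1, was at 0 in mice of both viruses. The summed level of 8 striatal neuron markers was 146 to 243 normalized CPM in the Ctrl mice and 105 to 268 in the knockdown mice, with a median log2 fold change of 0.07. With single mice left out, the count that rose ran from 0 to 3 for oligodendrocytes, 0 to 2 for their precursors, 1 to 3 for endothelial cells, 0 to 3 for mural cells and 2 to 4 for ependymal cells.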
